A study of Homo sapiens with 4 samples.

Results

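The TNF ligands and their receptors form a pair of related gene families whose protein products pass signals between cells. They were examined here in a breast cancer line of basal-like character, the human MDA-MB-231 cells, for 36 genes of 18417 measured with a single gene name. They comprised 14 ligand and 22 receptor genes. Members were the genes with a symbol of the TNFSF or TNFRSF series, together with FAS, FASLG, CD27, CD40, CD70, LTA, LTB, TNF and LTBR, each read from its brightest probe set. A receptor gene of the TNFRSF series was left out by the rule and is not reported here. CD40LG was not analysed here, and TNFSF12, TNFSF13, TNFRSF6B and TNFRSF10C share probe sets with other genes and were not counted as members. LTA, LTB and TNF had several probe sets each, 3 of which held identical values for TNF and 3 for LTB.

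The FOXC1 group was transfected with a plasmid for FOXC1, a forkhead transcription factor, and the vector group with the plasmid lacking it. A lipid reagent carried the plasmids, and all cells grew in DMEM with 10% serum and antibiotics. Each group had 2 arrays that the labels call biological replicates. The labels do not say whether transfection was transient or stable, nor whether the cells were a pool or a clone. The transcript of FOXC1 itself was not analysed here.

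TNF ligands are mostly trimeric membrane proteins that can be shed, and their receptors gather in matching trimers. Receptors with a death domain can assemble a caspase-activating complex or a complex that turns on NF-kB, and the other signalling receptors bind TRAF adaptors directly. Several ligands of the family, among them the costimulators of T cells, are best known from immune cells, whereas receptors for TRAIL (TNFSF10), TNF and TWEAK are common on epithelial and tumour cells.

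The values are linear PLIER signals, the summary brightness of a probe set. Differences are FOXC1 minus vector on the scale of log2(signal + 16) from a limma fit over all 21214 named probe sets, and "rose" or "fell" means a Benjamini-Hochberg adjusted p below 0.05 in that fit. The 25th percentile of mean signal among these probe sets was 277, below which a probe set is called dim here. Probe sets differ in how well they bind, so that changes were read within a gene. Median signals of the arrays ran from 499 to 512 in FOXC1 and from 489 to 492 in vector cells. The labelled cell type was checked with 6 genes known to be abundant in this line (VIM, CD44, EGFR, KRT18, CAV1 and AXL), and all 6 lay above the 75th percentile of signal. They were not alike in the groups. CD44 and EGFR rose, VIM, KRT18 and CAV1 fell and AXL was not called, with differences from -0.28 to 0.23. Of 9 measured leukocyte markers 0 lay above the median signal and 6 were dim in both groups. Their summed signal was 2307 and 2380 in FOXC1 arrays and 2165 and 2305 in vector arrays. Among them PTPRC rose, with dim signals of 93.9 and 93.5 in FOXC1 and 62.6 and 63.5 in vector arrays, and its part in the results was not tested.

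Of the 36 genes, 7 rose and 7 fell in FOXC1 cells. In either direction 38.9% were called, against 31.4% of all 18417 genes, of which 15.9% rose and 15.5% fell. Both FOXC1 arrays were above, or both below, the 2 vector arrays for 28 of the 36 genes, while this held for 63.5% of all genes. The median difference was 0.05 in the superfamily and 0.03 over all genes, and the median absolute difference was 0.12 and 0.11 on the log2 scale. The superfamily therefore held calls at a rate near that of the whole array, and most of its differences were small. Only TNFSF18 and TNFSF10 changed by at least 2-fold, which 0.961% of all genes did among those called. Centring over named probe sets called 3758 genes higher and 2543 lower, and quantile normalization 2575 and 3220, in place of 2925 and 2852. Centring each array on the median of all its rows, an alternative chosen after seeing the data, called 1739 higher and 3396 lower. With that last centring 4 superfamily genes rose instead of 7. The count of rises was also 4 without vector replicate 2.

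**Figure D1:**
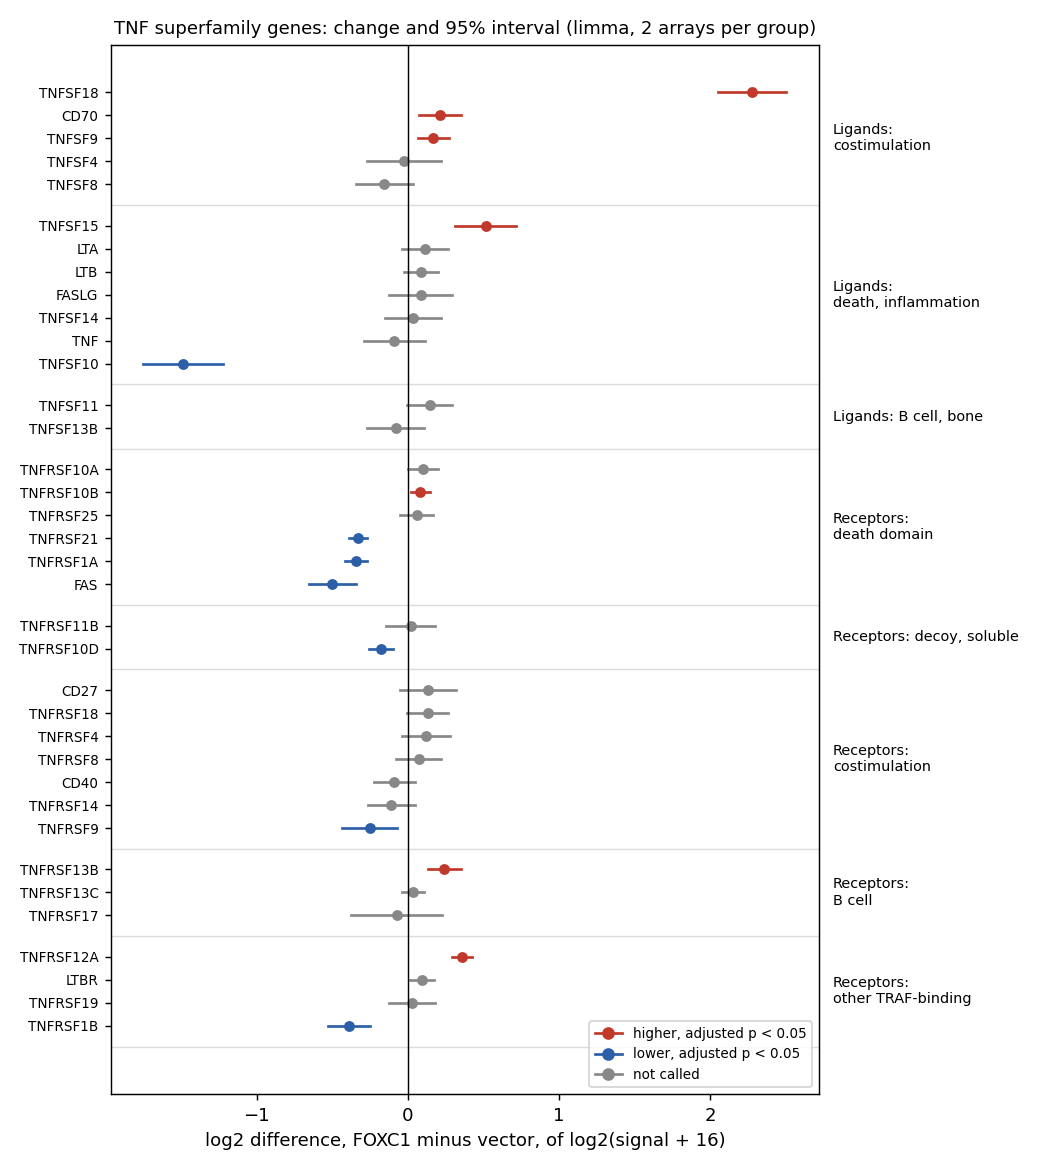
Log2 difference between FOXC1 and vector cells for the 36 superfamily genes, grouped by role, with the 95% interval of the limma fit (2 arrays per group). TNFSF18 stands at 2.28 and TNFSF10 at -1.49, and the other genes lie between -0.50 and 0.51.

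Among the ligands, TNFSF18 and TNFSF10 moved in opposite directions. TNFSF18, the ligand of the costimulatory receptor GITR and known from antigen-presenting and endothelial cells, was read by probe set 7922337. Its signal was 426 and 387 in FOXC1 arrays and 66.1 and 75.8 in vector arrays. It was dim in vector cells and above the dim limit in FOXC1 cells, with no overlap. It rose 4.86-fold (log2 2.28 ± 0.11 SE, limma adjusted p = 5.05e-13), the 12th largest rise of all genes. TNFSF10, the death ligand TRAIL, read by probe set 8092169, had signals of 112 and 80.2 in FOXC1 arrays and 275 and 318 in vector arrays. It fell 2.81-fold (log2 -1.49 ± 0.13 SE, adjusted p = 6.79e-09), and both FOXC1 arrays were dim, while the vector arrays lay near the dim limit. In these bulk samples fewer cells with a transcript and less transcript per cell cannot be told apart. The size of both changes depended on the offset added to the signal. TNFSF18 rose 5.67-fold when 1 was added and 3.49-fold when 64 was added, and TNFSF10 fell 3.09-fold and 2.26-fold with these offsets.

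The bases upstream of the start sites of TNFSF18 and TNFSF10 are shown because these genes had the largest rise and fall of the superfamily. Each sequence is the 250 bases before the RefSeq start (GRCh38.p14), read 5′ to 3′ on the gene's strand. Those of TNFSF18 lie at chr1:173050942-173051191 on the minus strand, and those of TNFSF10 at chr3:172523431-172523680 on the minus strand. Capitals mark matches to the letters TAAACA or GTAAACA, a core that forkhead factors bind and to TATAAA, the TATA box, each on both strands.
TNFSF18 upstream: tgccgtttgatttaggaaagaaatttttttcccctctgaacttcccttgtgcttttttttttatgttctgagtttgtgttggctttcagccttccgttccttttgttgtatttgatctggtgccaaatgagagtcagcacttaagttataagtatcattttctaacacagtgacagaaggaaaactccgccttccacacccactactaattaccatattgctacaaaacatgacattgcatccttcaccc
TNFSF10 upstream: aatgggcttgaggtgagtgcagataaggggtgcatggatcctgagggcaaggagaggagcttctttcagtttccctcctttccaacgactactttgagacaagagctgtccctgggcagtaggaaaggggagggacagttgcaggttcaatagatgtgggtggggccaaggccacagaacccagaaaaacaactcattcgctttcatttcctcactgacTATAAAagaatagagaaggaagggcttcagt
The TNFSF18 window held no match to these letters. The TNFSF10 window held a TATAAA from 31 to 26 bases before the start. The TNFSF18 window was the richer in A and T, at 61.2% against 50.4% in that of TNFSF10. Of the 36 genes 25 matched the RefSeq promoter table. The core TAAACA stood in 0 of 4 windows of genes that rose, 0 of 6 of genes that fell and 3 of 15 of genes that were not called (CD27, LTB and TNFSF11), compared with 11.1% of all 27305 windows of the same length. GTAAACA, which contains that core, stood upstream of LTB alone, compared with 3.01% of all windows. TATAAA stood in 4 of 25 superfamily windows (TNF, TNFRSF18, TNFSF9 and TNFSF10) and in 11.2% of all windows. These letter matches are descriptions of the windows and show no binding.

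Smaller rises also concerned ligands. TNFSF15, which binds the death domain receptor TNFRSF25, had signals of 263 and 249.5 in FOXC1 arrays and 175 and 174 in vector arrays. The groups were well apart, although every array was dim. TNFSF15 rose 1.43-fold (log2 0.51 ± 0.10 SE, adjusted p = 0.000306). CD70, a costimulatory ligand of CD27 that several tumour types carry, had signals of 762 and 839 in FOXC1 arrays and 710 and 667 in vector arrays, and rose 1.16-fold (adjusted p = 0.0205). TNFSF9, the ligand of the costimulatory receptor TNFRSF9, had signals of 1888 and 1734 in FOXC1 arrays and 1615 and 1600 in vector arrays, and rose 1.12-fold (adjusted p = 0.0113). The distance between the FOXC1 arrays was 0.683 times that between the group means for CD70 and 0.757 times for TNFSF9, and their calls were not stable. That of CD70 was lost without FOXC1 replicate 2 (adjusted p = 0.138) and without vector replicate 2 (0.222), and that of TNFSF9 without FOXC1 replicate 1 (0.0893), vector replicate 1 (0.0547) and vector replicate 2 (0.0853). Both were also lost without a variance trend (0.0959 for CD70 and 0.111 for TNFSF9), in the fit over all rows (0.0804 and 0.0633) and with centring over all rows (0.0627 and 0.101).

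The other 9 ligands were not called. TNF, the founding member and a strong inducer of NF-kB, was dim, with signals of 211 and 224 in FOXC1 arrays and 230 and 235 in vector arrays. Both FOXC1 arrays lay below the vector arrays, but the difference of -0.09 had a 95% interval from -0.29 to 0.11. Its chromosome 6 neighbours LTA and LTB, which form the lymphotoxins, had differences of 0.11 and 0.09. The Fas ligand FASLG (0.09) and the costimulator TNFSF4 (-0.03) were dim, and their groups overlapped. TNFSF13B, the B cell survival factor BAFF, had a difference of -0.08, TNFSF8, the ligand of CD30, one of -0.16, and TNFSF14, which binds TNFRSF14 and LTBR, one of 0.04. TNFSF11, the osteoclast-inducing ligand RANKL, had signals of 658 and 735 in FOXC1 arrays and 630 and 625 in vector arrays. The FOXC1 arrays were both higher, with a difference of 0.14 (adjusted p = 0.134), which passed only without FOXC1 replicate 1 (0.22, adjusted p = 0.0197).

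**Figure D2:**
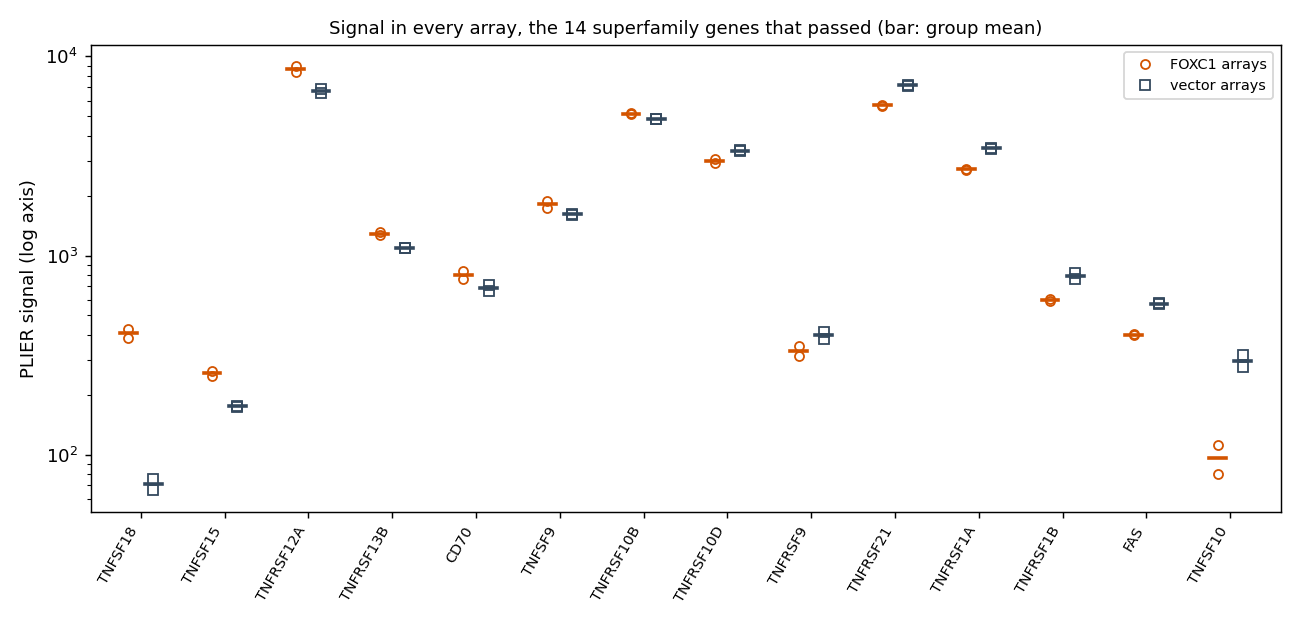
PLIER signal (log axis) of the 14 superfamily genes that passed, in each FOXC1 array (circles) and vector array (squares), with bars at the group means, ordered from the largest rise to the largest fall. The groups do not overlap in any of these genes, and the distance between them is widest for TNFSF18 (means of 407 in FOXC1 and 71.0 in vector) and TNFSF10 (96.3 in FOXC1 and 297 in vector).

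Of the 6 receptors with a death domain, 3 fell and 1 rose, where 15.5% of all genes fell and 15.9% rose. Of these receptors 5 lay above the median signal, and an excess of calls among them was not tested. FAS, the receptor of Fas ligand, had signals of 404 and 397 in FOXC1 arrays and 579 and 569 in vector arrays. Both FOXC1 arrays were far below both vector arrays, and FAS fell 1.42-fold (log2 -0.50 ± 0.07 SE, adjusted p = 1.77e-05). TNFRSF1A, the widely expressed TNF receptor, had signals of 2704 and 2724 in FOXC1 arrays and 3429 and 3473 in vector arrays, and fell 1.27-fold (log2 -0.34 ± 0.04 SE, adjusted p = 1.48e-07). TNFRSF21, also called death receptor 6, had signals of 5665 and 5726 in FOXC1 arrays and 7139 and 7192 in vector arrays, and fell 1.26-fold (log2 -0.33 ± 0.03 SE, adjusted p = 4.27e-09). In all 3 genes the arrays of a group lay close together compared with the distance between groups, and the calls held under each of the 15 alternatives tried. TNFRSF25, the receptor of TNFSF15, was not called, with a difference of 0.06 (95% interval -0.05 to 0.16).

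The TRAIL receptors, which lie side by side on chromosome 8, differed from one another. TNFRSF10B, a signalling death receptor, had signals of 5174 and 5123 in FOXC1 arrays and 4859 and 4867 in vector arrays and rose 1.06-fold (log2 0.08 ± 0.03 SE, adjusted p = 0.0418). This is the smallest change called among the 36 genes. TNFRSF10A, the other signalling receptor, had signals of 1669 and 1626 in FOXC1 arrays and 1507 and 1564 in vector arrays. Its difference of 0.10 was not called (adjusted p = 0.119) but was with centring over named probe sets (adjusted p = 0.0343). TNFRSF10D, a decoy with a truncated death domain, had signals of 3045 and 2906 in FOXC1 arrays and 3336 and 3396 in vector arrays and fell 1.13-fold (log2 -0.18 ± 0.04 SE, adjusted p = 0.000773), a call lost without a variance trend (adjusted p = 0.0648). The soluble decoy osteoprotegerin, TNFRSF11B, had a difference of 0.02, and its groups overlapped. The rise of TNFRSF10B did not pass without FOXC1 replicate 1 (adjusted p = 0.0876), vector replicate 1 (0.206) and vector replicate 2 (0.19), with quantile normalization (0.0735), without a variance trend (0.223), in the fit over all rows (0.109) and with centring over all rows (0.562).

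Receptors without a death domain also split. TNFRSF12A, the TWEAK receptor, which is induced by growth factors and injury, had signals of 8967 and 8326 in FOXC1 arrays and 6571 and 6891 in vector arrays. Both FOXC1 arrays were above both vector arrays, and it rose 1.28-fold (log2 0.36 ± 0.03 SE, adjusted p = 1.56e-08). TNFRSF1B, the TNF receptor found mostly on immune and endothelial cells, had signals of 589 and 607 in FOXC1 arrays and 816 and 763 in vector arrays and fell 1.31-fold (log2 -0.39 ± 0.07 SE, adjusted p = 9.38e-05). Both calls held under all 15 alternatives. With TNFRSF1A, both receptors of TNF thus fell. LTBR, the lymphotoxin beta receptor, had signals of 3435 and 3225 in FOXC1 arrays and 3093 and 3151 in vector arrays. Its difference of 0.09 was not called (adjusted p = 0.0746), but it was called with centring over named probe sets (0.0176), with replicate number as a blocking factor (0.0308) and without FOXC1 replicate 2 (0.00774). TNFRSF19, also called TROY and known from the nervous system, had a difference of 0.03, and its groups overlapped.

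Of 7 costimulatory receptors, which are best known from lymphocytes, 1 was called, where 31.4% of all genes were. TNFRSF9, the receptor of TNFSF9, had signals of 313 and 352 in FOXC1 arrays and 415 and 383 in vector arrays and fell 1.19-fold (log2 -0.25 ± 0.09 SE, adjusted p = 0.0324). The call did not hold without FOXC1 replicate 1 (adjusted p = 0.166), vector replicate 1 (0.279) and vector replicate 2 (0.0503), with centring over named probe sets (0.0621), without a variance trend (0.0879) and in the fit over all rows (0.105). TNFRSF18, the GITR receptor that TNFSF18 binds, had signals of 1024 and 1191 in FOXC1 arrays and 1019 and 995 in vector arrays. The first FOXC1 array was close to a vector array, and the difference of 0.13 was not called (95% interval -0.0031 to 0.27). It was called without FOXC1 replicate 1 (0.24, adjusted p = 0.00276). CD40, which also serves B cells, dendritic cells and epithelia, had a difference of -0.09 (95% interval -0.23 to 0.05). CD27, TNFRSF4, TNFRSF8 and TNFRSF14 had differences of 0.13, 0.12, 0.07 and -0.11, and none of them was called under any alternative tried.

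Among the 3 receptors of B cell factors, TNFRSF13B (TACI) had signals of 1266 and 1312 in FOXC1 arrays and 1087 and 1088 in vector arrays. It rose 1.18-fold (log2 0.24 ± 0.05 SE, adjusted p = 0.00114), a call that held under all 15 alternatives. TNFRSF13C (the BAFF receptor) had signals of 3394 and 3514 in FOXC1 arrays and 3403 and 3347 in vector arrays, a difference of 0.03. The B cell markers MS4A1 and CD79A had mean signals of only 67.4 and 429. Whether the probe sets of TNFRSF13B and TNFRSF13C read these transcripts alone was not tested. TNFRSF17 (BCMA), the dimmest member, had signals of 42.3 and 37.8 in FOXC1 arrays and 41.0 and 44.9 in vector arrays.

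**Figure D3:**
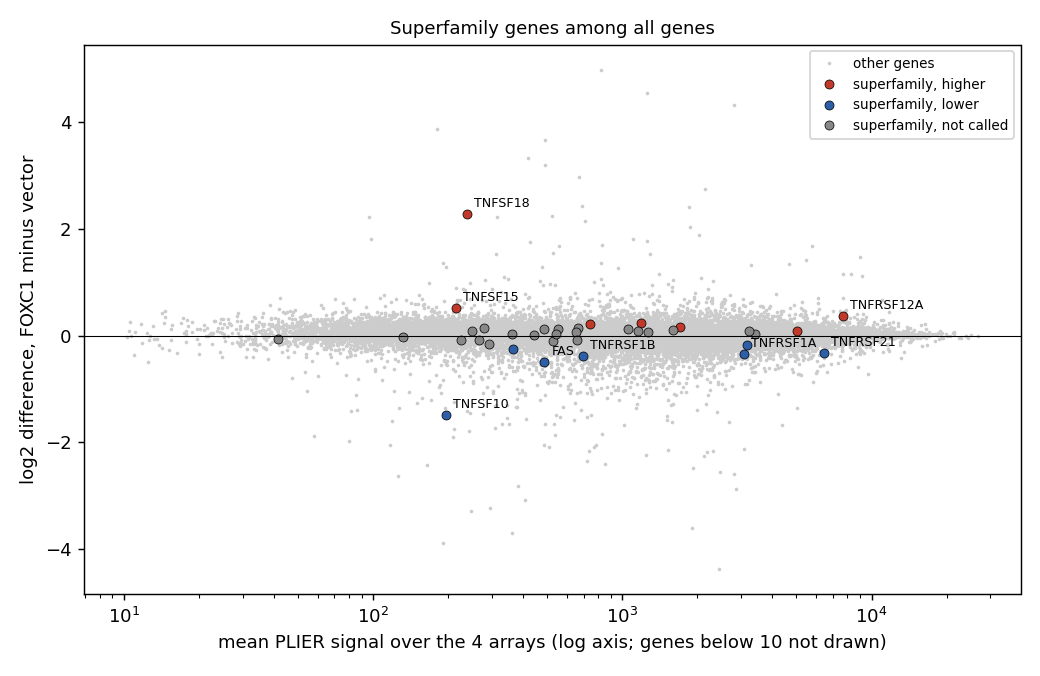
Log2 difference between FOXC1 and vector cells against mean signal over the 4 arrays (log axis) for the superfamily genes and the other genes with a mean signal of at least 10. TNFSF18, TNFSF15 and TNFSF10 lie at mean signals of 239, 216 and 196, below the dim limit of 277, whereas TNFRSF12A, TNFRSF21 and TNFRSF1A lie at 3083 or above.

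Ligands were set beside the receptors they are known to bind, for 22 pairs in which both genes were measured. Both sides were called in 3 pairs. TNFSF9 rose while TNFRSF9 fell, TNFSF10 fell while TNFRSF10B rose, and TNFSF10 and TNFRSF10D both fell. In 5 pairs only the ligand was called, among them TNFSF18 with TNFRSF18, TNFSF15 with TNFRSF25 and CD70 with CD27. In 6 pairs only the receptor was called, namely FAS with FASLG, both TNF receptors with TNF and with LTA, and TNFRSF13B with TNFSF13B. In 8 pairs neither side was called. Of all genes 31.4% were called, and the share of called pairs that this alone would give was not computed. The pairs share genes and are not independent, and a difference between a ligand and its receptor was not tested.

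**Figure D4:**
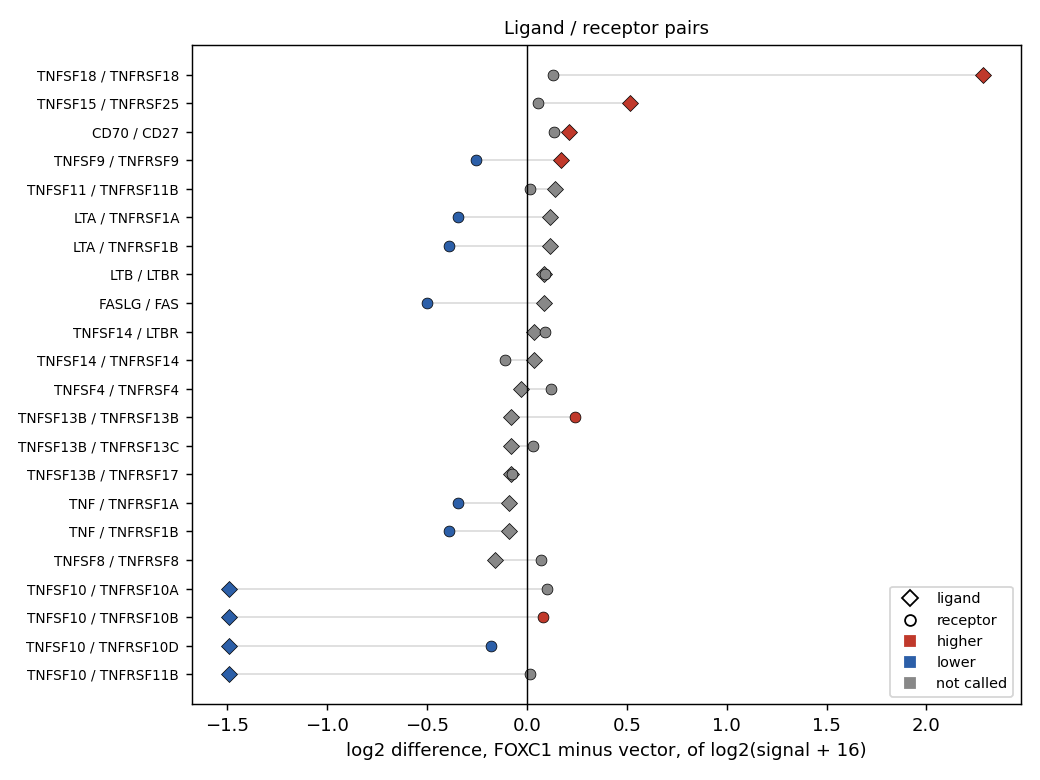
Log2 difference between FOXC1 and vector cells of the ligand (diamond) and the receptor (circle) in each of 22 pairs, ordered by the ligand's difference and coloured by call. The TNFSF18 pair spans from 0.13 for the receptor to 2.28 for the ligand, and in the TNFSF10 pairs the ligand stands at -1.49 and its receptors between -0.18 and 0.10.

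Several members are neighbours on a chromosome, and their changes were set beside those of the 5 nearest measured genes on each side, in the order of the RefSeq gene table. TNFSF18 lies on chromosome 1 between FASLG and TNFSF4. Of its 10 neighbours 0 rose and SUCO alone fell, and their differences ran from -0.30 to 0.11. Over all genes 15.9% rose and 15.5% fell. Around TNFSF10 on chromosome 3, 0 of 10 rose and TNIK (-0.60), NLGN1 (-0.33) and ECT2 (-0.13) fell, while its immediate neighbours GHSR (0.15) and NCEH1 (-0.04) were not called. Around TNFSF15 on chromosome 9, TMEM268 (0.23) and ATP6V1G1 (0.26) on one side also rose. On the other side TNFSF8 (-0.16) was not called, and TNC (-0.83) and PAPPA (-0.50) fell. On chromosome 19 TNFSF9, CD70 and TNFSF14 stand side by side. Before them TUBB4A (0.14), the gene beside TNFSF9, rose and SLC25A23 (-0.15) fell, and after them C3 (-0.21), TRIP10 (-0.19), SH2D3A (-0.70) and VAV1 (-2.43) fell, with GPR108 (-0.02) not called. FAS on chromosome 10 had ANKRD22 (-1.98) and IFIT3 (-0.29) lower and STAMBPL1 (0.18) and LIPA (0.13) higher among its neighbours. Around TNFRSF1A on chromosome 12, 0 of 10 rose, CD9 (-0.24) and VAMP1 (-0.35) fell, and LTBR (0.09) and CD27 (0.13) were not called. The genes immediately beside TNFSF18 and TNFSF10 were thus not called. Other members had up to 4 rises (TNFRSF18, TNFRSF4 and TNFRSF19) or 5 falls (CD27 and LTBR) among their 10 neighbours.

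The genes that carry the signal inside the cell were taken as a list of adaptors, ubiquitin enzymes, kinases, NF-kB proteins and caspases, of which 38 were measured. Of these 15 rose and 8 fell, which is 60.5% called compared with 31.4% of all genes, and 34 of the 38 lay above the median signal. The list was chosen with earlier results of these data known. The share called among genes of like signal was not computed, so that an excess of calls in the list was not tested. The median difference was 0.05 against 0.03 over all genes. The count of rises was 9 without vector replicate 1, and that of falls was 5 without it. All changes in the list were below 2-fold.

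Among 16 adaptors and ubiquitin enzymes, 6 rose and 3 fell. TNFAIP3 (A20), a ubiquitin-editing enzyme that restrains NF-kB and is itself a target of it, had signals of 1650 and 1573 in FOXC1 arrays and 935 and 973 in vector arrays. It rose 1.68-fold (log2 0.75 ± 0.05 SE, adjusted p = 4.08e-10), the widest gap of the list. TRAF4 rose 1.23-fold, the ubiquitin ligase BIRC2 (cIAP1) 1.22-fold, the caspase inhibitor XIAP 1.20-fold and TRAF3, which holds back the noncanonical NF-kB kinase, 1.18-fold. The falls were in FADD (1.13-fold), the adaptor that brings caspase-8 to death receptors, in TANK (1.14-fold) and in RNF31 (1.16-fold), a ligase of linear ubiquitin chains. TRADD (0.06), TRAF5 (0.05), OTULIN (0.02), RBCK1 (0.00055), SHARPIN (-0.02), TRAF6 (-0.11) and TRAF1 (-0.15) were not called. The calls of TANK (adjusted p = 0.186) and RNF31 (0.0615) were lost without vector replicate 1, and that of RNF31 also without vector replicate 2 (0.0607). Those of FADD (0.0589) and TANK (0.0836) were lost without a variance trend.

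Of 15 kinases and NF-kB proteins 8 rose and 3 fell. RELB and NFKB2, the subunits of the noncanonical NF-kB dimer, led the rises. RELB had signals of 1047 and 1053 in FOXC1 arrays and 738 and 688 in vector arrays and rose 1.46-fold (log2 0.55 ± 0.06 SE, adjusted p = 3.91e-07). NFKB2 had signals of 2299 and 2125 in FOXC1 arrays and 1685 and 1671 in vector arrays and rose 1.31-fold (log2 0.39 ± 0.05 SE, adjusted p = 8.49e-07). The inhibitor NFKBIE rose 1.23-fold, IKBKG, the scaffold of the IKK complex, 1.18-fold and MAP3K14, the noncanonical NF-kB kinase, 1.15-fold. The rises were not limited to noncanonical genes. NFKB1 rose 1.15-fold (log2 0.20 ± 0.04 SE, limma adjusted p = 0.000463), a call that held under all 15 alternatives. REL and TAB3 each rose 1.08-fold, with calls that did not hold under every alternative. The kinase IKBKB fell 1.22-fold, MAP3K5 1.19-fold and TAB2 1.13-fold. RELA (0.08), CHUK (0.06), MAP3K7 (-0.07) and the inhibitor NFKBIA (-0.03), whose groups overlapped, were not called. IKBKG lost its call without vector replicate 1 (adjusted p = 0.307), without a variance trend (0.112) and in the fit over all rows (0.0685), and IKBKB without a variance trend (0.0542). MAP3K14 lost it without FOXC1 replicate 1 (0.0687), vector replicate 1 (0.117) and vector replicate 2 (0.0795), without a variance trend (0.0616), in the fit over all rows (0.0521) and with centring over all rows (0.0717).

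Of 7 caspases and death effectors 2 fell and 1 rose. MLKL, the membrane-breaking effector of necroptosis, had signals of 1603 and 1582 in FOXC1 arrays and 1881 and 1857 in vector arrays and fell 1.17-fold (log2 -0.23 ± 0.05 SE, adjusted p = 0.000415). CASP8, the initiator caspase of the death receptors, had signals of 2103 and 2101 in FOXC1 arrays and 2353 and 2255 in vector arrays and fell 1.10-fold (adjusted p = 0.0202). DIABLO, which releases caspases from XIAP, rose 1.08-fold (adjusted p = 0.032). The call of CASP8 was lost without vector replicate 1 (adjusted p = 0.294) and vector replicate 2 (0.0522), and that of DIABLO without FOXC1 replicate 1 (0.111), vector replicate 1 (0.171) and vector replicate 2 (0.178). Both were lost without a variance trend (0.114 for CASP8 and 0.15 for DIABLO) and in the fit over all rows (0.0657 and 0.0872), and DIABLO also with centring over all rows (0.367). CFLAR, BID, CASP10 and RIPK3 were not called, although BID and CASP10 passed under some alternatives.

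**Figure D5:**
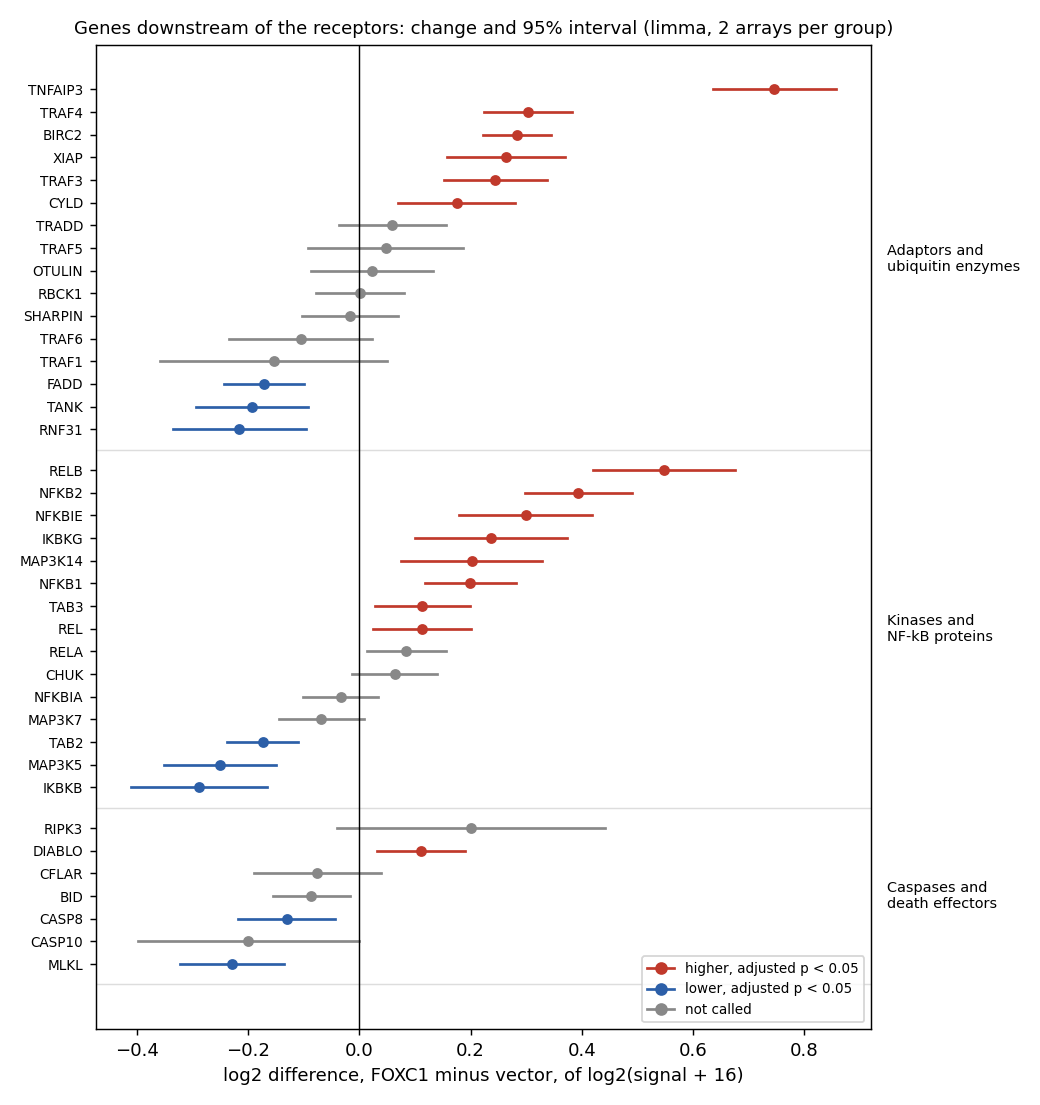
Log2 difference between FOXC1 and vector cells, with the 95% interval of the limma fit (2 arrays per group), for 38 genes that act downstream of the receptors. TNFAIP3 (0.75), RELB (0.55) and NFKB2 (0.39) lie highest and IKBKB (-0.29), MAP3K5 (-0.25) and MLKL (-0.23) lowest.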

How the data were processed

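RNA of FOXC1-transfected and vector MDA-MB-231 cells, 2 samples each, was hybridised to Affymetrix whole-transcript gene arrays. Per the labels, the authors summarised probes to gene-level intensity with PLIER in Affymetrix Expression Console. The labels give no version, background step or normalization option. The deposited intensity values were used as they stand, with an offset of 16 before log2. Arrays carry no read depth, and 2 per group limit the precision. The p-values rest on a variance drawn mostly from all named probe sets of like signal (18.1 prior against 2 residual degrees of freedom). They do not measure the spread of each gene's own arrays alone, and the spread between arrays may be technical.

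Of 33297 probe sets, 21214 carried a gene symbol (19460 one, 1754 several) and entered a limma fit (version 3.58.1, under R 4.3.3, with lmFit and eBayes, a trend, two-sided, 2 residual and 18.1 prior degrees of freedom, Benjamini-Hochberg at 0.05). Genes were taken from single-symbol probe sets, the brightest per gene. The fit was tested on simulated data with independent noise, a check that required recovery of large planted changes only. Members and lists were chosen with earlier results of these data known. Every member that passed is named with its change, as are up to 5 passing genes per downstream list and direction. Other downstream genes are named for comparison. Deviations of same-numbered arrays had a correlation of -0.01 across probe sets, and numbers were not used as pairs. Alternatives were other offsets, a filter on dim probe sets, quantile normalization, median centring (over named probe sets, or over all rows), variance moderation without a trend or robust, a replicate block, leaving out each array, averaging probe sets and fitting all rows.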

Additional observations from a re-analysis of the deposited data

How the results depend on the processing

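Of the 14 superfamily calls, 9 held under every one of the alternatives that measured the gene. The others were CD70, TNFSF9, TNFRSF9, TNFRSF10B and TNFRSF10D, whose lost calls are given above. Of 22 genes not called, 4 (TNFSF11, TNFRSF18, TNFRSF10A and LTBR) passed under at least 1 alternative. The count of 7 rises became 4 without a variance trend, 4 in the fit over all rows and 4 with centring over all rows, and 4 to 7 when an array was left out, with 6 to 7 falls. Among the downstream genes the 15 rises became 9 and the 8 falls 5 without a variance trend, the rises became 9 in the fit over all rows, and leaving out an array gave 9 to 16 rises and 5 to 9 falls. Of 23 downstream calls 12 held under all 15 alternatives. Downstream genes that were not called but passed under at least 1 alternative were BID, CASP10, RELA, CHUK and TRAF6. With the replicate number as a block 8 superfamily genes rose and 7 fell, LTBR being the added call, and 16 downstream genes rose and 9 fell. With the filter on dim probe sets TNFSF18, TNFSF15 and TNFSF10 were left out and 5 rose and 6 fell. Of the downstream genes not called, RBCK1, OTULIN, SHARPIN, TRAF5 and CFLAR changed direction under at least 1 alternative. The direction also turned in 6 superfamily genes that were not called. With quantile normalization TNFSF14 was at -0.014, TNFRSF11B at -0.028 and TNFRSF19 at -0.010, and with centring over all rows TNFSF14 was at -0.0057, TNFRSF11B at -0.024, TNFRSF19 at -0.014 and TNFRSF13C at -0.0088. Leaving out an array gave -0.15 to 0.091 for TNFSF4, -0.014 to 0.18 for FASLG, -0.051 to 0.12 for TNFSF14 and -0.038 to 0.073 for TNFRSF11B. The causes of these shifts were not tested. Dim signals limit TNFSF18 and CD27 in vector cells, TNFSF10 and TNFSF8 in FOXC1 cells, and TNF, TNFSF4, TNFSF13B, FASLG, TNFSF15 and TNFRSF17 in both.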

Other observations

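Genes of the TNF superfamily outside the membership rule, picked after their values were seen, also moved in both directions. RELT, a TRAF-binding receptor, had signals of 997 and 929 in FOXC1 arrays and 779 and 706 in vector arrays and rose 1.29-fold (limma adjusted p = 0.000141). EDA2R, a receptor of ectodysplasin, was dim, at 156 and 155 in FOXC1 arrays and 112 and 121 in vector arrays, and rose 1.30-fold (adjusted p = 0.0133). NGFR, the low-affinity neurotrophin receptor with a death domain, had signals of 472 and 504 in FOXC1 arrays and 631 and 704 in vector arrays and fell 1.35-fold (adjusted p = 9.61e-05). EDA and EDAR had log2 differences of 0.05 and 0.02 and were not called.

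Superfamily genes that share a probe set with other genes were read only as the probe set. The probe set of LOC254896 and the TRAIL decoy TNFRSF10C was lower, at 291 and 301 in FOXC1 arrays and 352 and 363 in vector arrays (log2 -0.26, adjusted p = 0.0248). That of TNFSF12, TNFSF13 and their joined transcript was lower, at 1385 and 1368 in FOXC1 arrays and 1524 and 1504 in vector arrays (log2 -0.14, adjusted p = 0.0368). That of RTEL1 and the soluble decoy TNFRSF6B was not called, with a log2 difference of 0.06. Which of the named genes gave these signals was not tested.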
